A study of Mus musculus with 33 samples.

Results

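Hox genes encode homeodomain transcription factors, and the mouse files held 39 of them in 40 rows of 31053 gene rows, Hoxd4 being listed under 2 gene identifiers. Every row whose symbol is Hoxa, Hoxb, Hoxc or Hoxd followed by a number was taken. They were described in 3 single-cell RNA libraries of adult mouse colon mesenchyme, out of 33 samples in the series; the bulk RNA and chromatin accessibility samples were not used here. The whole mesenchyme library (n = 1, genotype labelled control) held cells that lacked EpCAM, which marks epithelium, and CD45, which marks leukocytes. The 2 GFP-low libraries came from PdgfraH2BeGFP mice from the Jackson Laboratories, in which nuclear GFP is made from the Pdgfra locus, and held unstained cells sorted for a low GFP level. All were untreated, and mice of both sexes were used, with ages not given beyond adult. The outer muscle layer had been taken off before dissociation, so deep muscle and its nerve plexus were not sampled by design. Nothing in the labels says which animals gave a library or how many were pooled, or which stretch of the colon was taken.

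The mouse Hox genes lie in 4 clusters, and genes at the same place in different clusters are paralogues that carry the same number. During development the low numbers are switched on earlier and further forward along the body, the high numbers later and further back, and adult fibroblasts and vessels are known to keep much of this address. In the GRCm38.p6 annotation of RefSeq, Hoxa lay on chr6:52155367-52260880, Hoxb on chr11:96194316-96368254, Hoxc on chr15:102921131-103036856 and Hoxd on chr2:74668225-74765142. The spans of 10 of the 39 genes overlap another Hox gene (Hoxa3 with Hoxa4 to Hoxa6, Hoxb3 with Hoxb4, Hoxd3 with Hoxd4, Hoxd10 with Hoxd11), and 20 overlap some other gene, so the split of UMIs inside these pairs is uncertain.

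Of the 39 genes, 22 had at least 1 promoter window of 300 bases in the RefSeq table (24 windows, GRCm38.p6, 250 bases before the start and 50 after). The 250 bases before the start are shown for 3 genes on which the results below turn: Hoxb4, the Hoxb gene with the most UMIs; Hoxb8, which in the whole mesenchyme library had 21 of its 22 UMIs in blood endothelium; and Hoxd11, the Hox gene with the most UMIs, at the more downstream of its pair of windows. All 3 are on the plus strand, at chr11:96318017-96318266, chr11:96281655-96281904 and chr2:74682073-74682322. Capitals mark 5 motifs searched on both strands: TTTAT, the core bound by high-numbered Hox proteins; TATAAA, the TATA box, which overlaps the first where it reads on; CCAAT; TGATNNAT, a joint Pbx and Hox site; and AGGTCA, a motif bound by nuclear receptors.
Hoxb4: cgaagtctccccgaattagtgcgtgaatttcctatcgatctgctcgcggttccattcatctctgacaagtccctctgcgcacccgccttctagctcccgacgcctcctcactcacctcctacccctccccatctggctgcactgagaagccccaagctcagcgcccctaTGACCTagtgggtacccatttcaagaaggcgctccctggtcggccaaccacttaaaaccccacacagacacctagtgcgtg
Hoxb8: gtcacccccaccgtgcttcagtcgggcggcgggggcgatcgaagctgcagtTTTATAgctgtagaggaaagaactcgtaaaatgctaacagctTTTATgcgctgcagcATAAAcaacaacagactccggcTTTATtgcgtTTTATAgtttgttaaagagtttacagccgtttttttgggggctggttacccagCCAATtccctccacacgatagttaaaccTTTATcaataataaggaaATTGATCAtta
Hoxd11: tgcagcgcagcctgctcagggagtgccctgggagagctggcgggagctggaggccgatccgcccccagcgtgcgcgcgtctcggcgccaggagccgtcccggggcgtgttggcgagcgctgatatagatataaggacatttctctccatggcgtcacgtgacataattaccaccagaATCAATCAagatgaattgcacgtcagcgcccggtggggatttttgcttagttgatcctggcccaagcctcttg
The Hoxb8 window held 6 matches to TTTAT and 2 to TATAAA, the Hoxb4 window 1 to AGGTCA and the Hoxd11 window 1 to TGATNNAT. TTTAT was in 40.0% of all 32851 windows of this length and in 37.5% of the Hox windows, TATAAA in 13.6% and 16.7%, CCAAT in 37.4% and 62.5%, TGATNNAT in 8.85% and 16.7%, and AGGTCA in 16.3% and 29.2%. The Hox windows had a median of 14.5 CG pairs against 7.0 in all windows. These matches describe letters and were not tested against any binding data.

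Cells with at least 1000 UMIs, 500 genes and at most 20% mitochondrial UMIs numbered 6793 in the whole mesenchyme library, 4834 in GFP-low library 1 and 6025 in GFP-low library 2, with median depths of 4429, 6446.5 and 7025 UMIs per cell. The cells of these libraries gave 31344009, 29745375 and 40807433 UMIs, and pairs of libraries shared 6 to 11 cell barcodes, where chance would give about 4.29 to 6.02. Cell classes were gated on marker genes, none of them a Hox gene, so that each class name stands for a class-like group. The whole mesenchyme library held 597 Cd81-high fibroblasts, 2591 Adamdec1 fibroblasts, 960 telocytes (Pdgfra-high cells under the epithelium), 1385 other fibroblasts, 781 blood endothelial cells, 60 lymphatic endothelial cells, 52 glial cells, 40 pericytes and 157 smooth muscle cells or myofibroblasts. The GFP-low libraries held 3254 and 4220 Cd81-high and 1035 and 1140 Adamdec1 fibroblasts, 1 blood endothelial cell each, and no glia. Xist, made from the inactive X chromosome, was between 372.8 and 851.4 CPM in every class of the whole mesenchyme library and at most 0.2 CPM in the cell classes of both GFP-low libraries, so sex and sort cannot be told apart between them.

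Of the 40 rows, 21 reached a level of 10 CPM (UMIs of the gene per 1000000 UMIs of the class) in at least 1 class sum of 20 cells or more: 7 of 11 Hoxa rows, 7 of 10 Hoxb rows, 3 of 9 Hoxc rows and 4 of 10 Hoxd rows. These were Hoxa3, Hoxa5, Hoxa7, Hoxa9, Hoxa10, Hoxa11, Hoxa13, Hoxb2 to Hoxb7, Hoxb9, Hoxc6, Hoxc9, Hoxc10 and Hoxd8 to Hoxd11. The other 19 rows stayed below: 11 had more than 10 UMIs over all cells, with class maxima from 0.779 CPM for 1 of the Hoxd4 rows to 8.18 CPM for Hoxb8 and Hoxc4, 5 had 1 to 10 UMIs, and Hoxb13, Hoxc12 and Hoxd12 had none. Hoxa13, the last gene of its cluster, was the group 13 gene that was counted, with 187, 230 and 266 UMIs over all cells of the whole mesenchyme library, GFP-low library 1 and GFP-low library 2. Its paralogue Hoxd13 had 1 UMI in all, Hoxc13 had 1 and Hoxb13 had 0. A heatmap of the 21 genes over the classes of the whole mesenchyme library shows where each was counted.

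**Figure D1:**
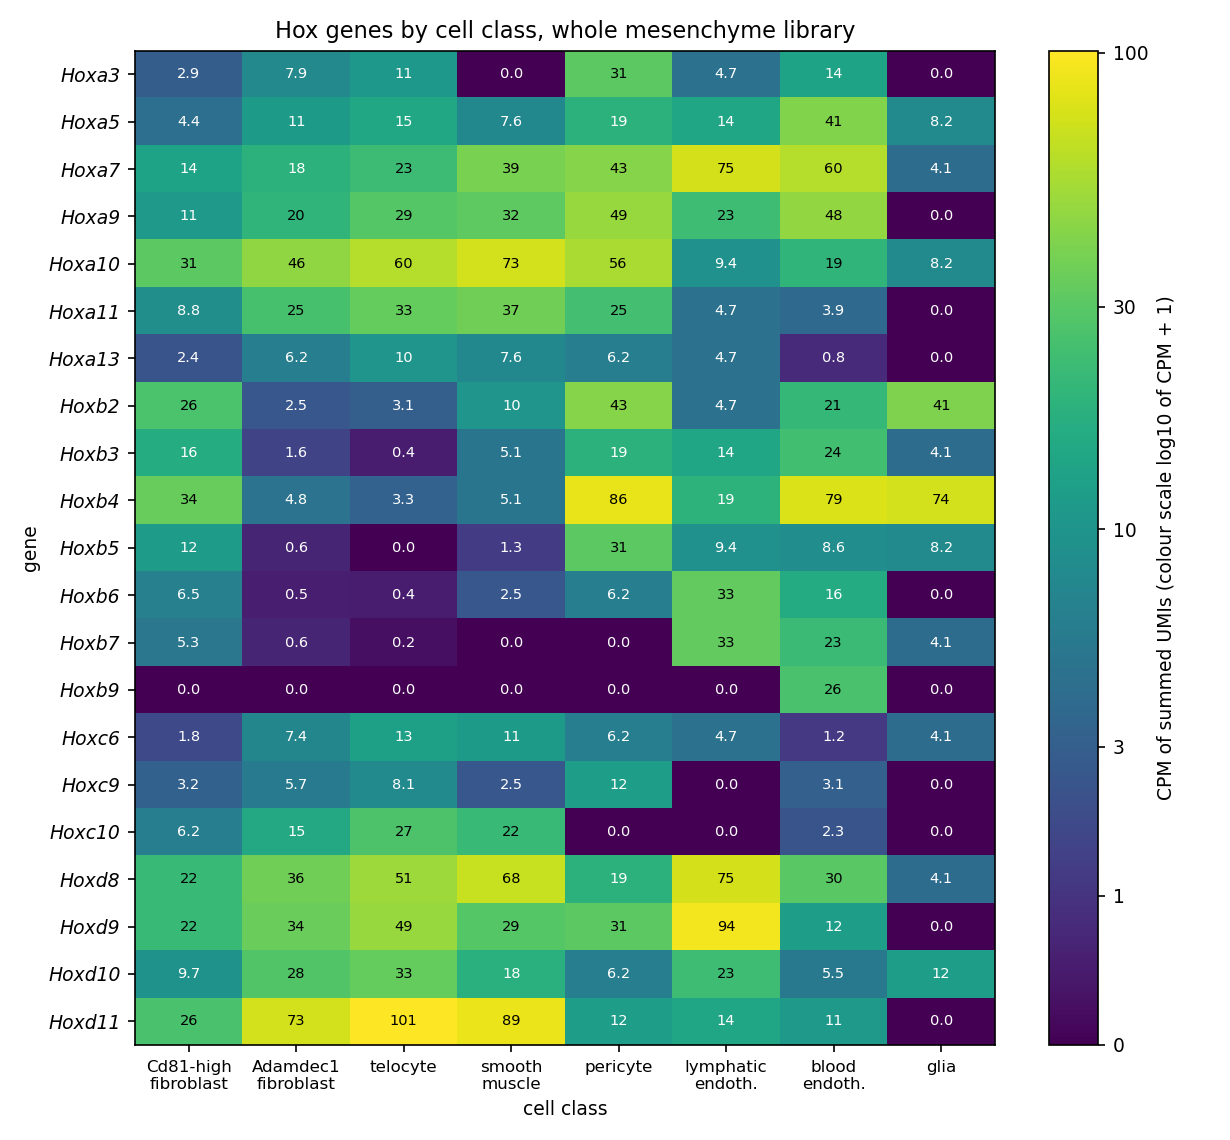
Level of the 21 Hox genes that reached 10 CPM (rows) in 8 cell classes of the whole mesenchyme library (columns), as CPM of summed UMIs printed in each cell, on a log10 colour scale of CPM + 1. Each of Hoxb2 to Hoxb7 is higher in Cd81-high fibroblasts and blood endothelium than in Adamdec1 fibroblasts and telocytes, where Hoxd11 reached 72.9 and 101 CPM. Hoxb4 is highest in pericytes (40 cells) at 86.4 CPM, and Hoxb6 and Hoxb7 in lymphatic endothelium (60 cells) at 32.7 CPM each. These ranks rest on few UMIs, and blood endothelium has these 3 genes at 79.1, 16.4 and 22.6 CPM. Hoxb9 has UMIs in blood endothelium alone among these 8 columns.

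The 2 main fibroblast classes of the colon differed in opposite directions across the Hox clusters. In Cd81-high fibroblasts, which hold the Grem1-expressing cells below the crypts, all 6 tested Hoxb genes (Hoxb2 to Hoxb7) rose against Adamdec1 fibroblasts, which lie along the crypts, while 18 of the 19 tested genes of the other 3 clusters fell. The test was edgeR's quasi-likelihood test on UMIs summed per library and class with the library as a block, n = 3 libraries, adjusted by Benjamini-Hochberg over 12650 genes. Over all genes tested, 14.2% rose and 14.7% fell. Of the 25 tested Hox genes 6 rose and 18 fell, each in the same direction in 3 of 3 libraries. Their median log2 difference was -0.98, against -0.0045 over all genes tested. The p-values rest on how far the class difference varied between these libraries, which nothing ties to separate animals.

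Hoxb4, a gene of the front part of its cluster, gave the largest Hoxb signal of the fibroblasts. It was at 34.1, 52.0 and 31.0 CPM in Cd81-high fibroblasts of the whole mesenchyme library, GFP-low library 1 and GFP-low library 2, and at 4.78, 7.56 and 6.27 CPM in Adamdec1 fibroblasts. The groups did not overlap, and Hoxb4 rose by 2.73 ± 0.13 on the log2 scale (SE, edgeR adjusted p = 4.3e-06). Its neighbour Hoxb2, best known for its role in hindbrain segments, was at 26.5, 30.6 and 21.0 CPM against 2.49, 3.3 and 2.35 CPM (log2 difference 3.34 ± 0.14, edgeR adjusted p = 2.37e-06). Here too every Cd81-high value lay above every Adamdec1 value.

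The remaining Hoxb genes were lower in level and as far apart. Hoxb5 had 40, 300 and 175 UMIs in Cd81-high fibroblasts and 9, 7 and 4 in Adamdec1 fibroblasts, at 11.8, 14.96 and 5.69 against 0.623, 0.962 and 0.522 CPM (log2 difference 4.02 ± 0.24, edgeR adjusted p = 1.02e-05). Hoxb3, Hoxb6 and Hoxb7 rose by 3.81 ± 0.23, 3.59 ± 0.27 and 3.44 ± 0.29 on the log2 scale, with 18 to 489 UMIs per library in Cd81-high fibroblasts and 4 to 23 in Adamdec1 fibroblasts. The Hoxb series ended early in both classes: Hoxb8 had 1, 16 and 5 UMIs in Cd81-high fibroblasts and 0, 1 and 0 in Adamdec1 fibroblasts, and Hoxb9 had 0 UMIs in all 6 sums.

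Among the genes that fell, Hoxd11, a gene of the back part of the Hoxd cluster, had the most UMIs. It was at 25.9, 25.8 and 17.7 CPM in Cd81-high fibroblasts and at 72.9, 62.8 and 63.9 CPM in Adamdec1 fibroblasts, and fell by 1.45 on the log2 scale (SE 0.12, edgeR adjusted p = 5.19e-05). Hoxd10 fell by 1.12, Hoxd8 by 0.68 and Hoxd9 by 0.48, so all 4 tested Hoxd genes were lower in Cd81-high fibroblasts in 3 of 3 libraries. Hoxa10 was at 30.9, 34.0 and 26.6 CPM against 46.5, 62.1 and 59.6 CPM and fell by 0.81. Hoxa11 was at 8.82, 21.4 and 13.2 CPM against 25.4, 48.5 and 30.4 CPM and fell by 1.14. For each of these genes the highest Cd81-high value lay below the lowest Adamdec1 value.

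The Hoxc genes were low in both classes, and all 6 that were tested fell. Hoxc6 had 6, 41 and 38 UMIs in Cd81-high fibroblasts and 107, 47 and 77 in Adamdec1 fibroblasts, at 1.76, 2.04 and 1.24 against 7.41, 6.46 and 10.1 CPM (log2 difference -2.22 ± 0.29, edgeR adjusted p = 0.000674). Hoxc10 fell by 1.25 and Hoxc9 by 1.12. Hoxa13 fell by 1.18, from 6.17, 13.6 and 12.1 CPM in Adamdec1 fibroblasts to 2.35, 5.49 and 5.04 CPM. Hoxa2 was the gene that missed the threshold (log2 difference -0.91 ± 0.43, edgeR adjusted p = 0.160).

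Some calls rested on single libraries, mostly those of genes with few UMIs but also that of Hoxd9, which had 2945 UMIs over all cells. Without the whole mesenchyme library Hoxa6 and Hoxc4 no longer passed (edgeR adjusted p = 0.0521 and 0.0781). Without GFP-low library 1 these and Hoxa3, Hoxc8 and Hoxc11 did not pass (edgeR adjusted p = 0.0877, 0.0749, 0.0607, 0.102 and 0.0556 for Hoxa6, Hoxc4, Hoxa3, Hoxc8 and Hoxc11). Without GFP-low library 2 Hoxa6, Hoxc4, Hoxc8 and Hoxd9 did not pass (edgeR adjusted p = 0.068, 0.277, 0.24 and 0.14). The 6 Hoxb genes passed in all 3 of these fits. With each cell thinned to 1000 UMIs, Hoxa13, Hoxc9, Hoxd8 and Hoxd9 did not pass (edgeR adjusted p = 0.0885, 0.236, 0.126 and 0.404), and with DESeq2 Hoxa6, Hoxc4, Hoxc8 and Hoxd9 did not (DESeq2 adjusted p = 0.124, 0.254, 0.131 and 0.0741).

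**Figure D2:**
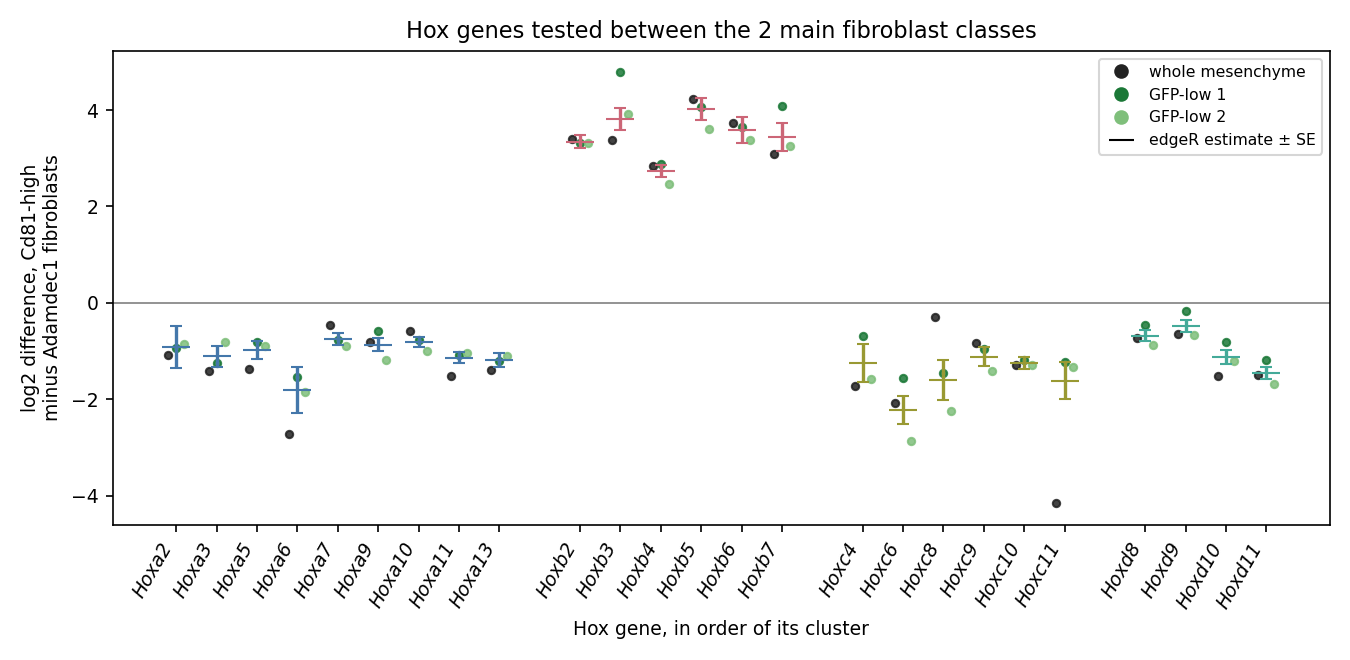
Log2 difference between Cd81-high and Adamdec1 fibroblasts (y axis) for the 25 tested Hox genes in cluster order (x axis). Bars are the edgeR estimate ± SE, and points are the log2 ratio of TMM-scaled CPM in each of the 3 libraries; the 6 Hoxb genes lie between 2.73 and 4.02, and the others lie below 0.

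Read as shares of all Hox UMIs, the Hoxb cluster gave 37.3%, 38.9% and 37.2% in Cd81-high fibroblasts of the whole mesenchyme library, GFP-low library 1 and GFP-low library 2. In Adamdec1 fibroblasts it gave 2.94%, 3.48% and 3.2%. Genes numbered 9 to 13 gave 44.5%, 46.7% and 48.4% of Hox UMIs in Cd81-high and 71.7%, 75.1% and 75.3% in Adamdec1 fibroblasts. The paralogue group with the most UMIs was group 11 in Adamdec1 fibroblasts (28.7%, 28.9% and 27.0%), whereas in Cd81-high fibroblasts no group passed 17.6%. The summed level of all Hox genes was 270.3, 332.5 and 226.4 CPM in Cd81-high and 361.0, 395.5 and 359.7 CPM in Adamdec1 fibroblasts.

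RNA of other cells was measured beside these levels. The 10 blood endothelium markers summed to 35.6, 9.58 and 4.72 CPM in Cd81-high and to 37.9, 19.2 and 8.62 CPM in Adamdec1 fibroblasts, against 11925.6 CPM in blood endothelium, and Hoxb9 was at 0 in both classes. The T or innate lymphoid cells of the GFP-low libraries served as the background for shares of cells. Any Hoxb UMI was seen in 37.4%, 46.0% and 40.4% of Cd81-high fibroblasts (median 5997, 6431 and 7470.5 UMIs) and in 4.94%, 7.25% and 6.23% of Adamdec1 fibroblasts (median 5859, 7174 and 6734 UMIs). In T cells it was seen in 12.2% of 74 cells of GFP-low library 1 (exact binomial 95% interval 5.71 to 21.8%, median 6235 UMIs) and in 6.9% of 29 cells of GFP-low library 2 (0.846 to 22.8%, median 6517 UMIs). In the GFP-low libraries the share of Adamdec1 fibroblasts with a Hoxb UMI was thus within the intervals of the T cells and is not read as expression. The whole mesenchyme library held 7 T cells, too few for such a background. As the T cells carried fibroblast RNA, this comparison does not show absence either. With every cell thinned to 1000 UMIs, which left out no cell, the shares were 8.04%, 11.1% and 8.41% in Cd81-high, 0.772%, 1.35% and 1.4% in Adamdec1 fibroblasts and 1.35% and 3.45% in T cells.

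The same background limits the high-numbered genes in Cd81-high fibroblasts. A Hoxd11 UMI was seen in 29.2%, 27.7% and 28.2% of Adamdec1 fibroblasts and in 12.6%, 12.8% and 10.6% of Cd81-high fibroblasts, but also in 10.8% (4.78 to 20.2%) and 20.7% (7.99 to 39.7%) of T cells. Droplets under 100 UMIs, which hold free RNA, had Hoxd11 at 39.7, 22.9 and 15.6 CPM. In both GFP-low libraries the Hoxd11 share of Cd81-high fibroblasts was within the intervals of the T cells. By itself this share is read neither as expression nor as its absence. These T cells had the 10 Adamdec1 markers at 5137 and 7819 CPM, against 474 and 400 CPM in Cd81-high fibroblasts. The comparison therefore does not show that Cd81-high fibroblasts lack Hoxd11. Their summed Hoxd11 level stood below the droplets in the whole mesenchyme library and, with overlapping counting intervals, above them in both GFP-low libraries. The Hoxd11 level of Adamdec1 fibroblasts stood above that of the droplets in every library. Hoxb4 was at 11.7, 29.4 and 15.6 CPM in these droplets, below its level in Cd81-high fibroblasts of each library, and Hoxb2 was at 6.71, 38.4 and 17.5 CPM, above it in GFP-low library 1. The T cells carried fibroblast RNA, with a median of 6 of 8 fibroblast markers in both GFP-low libraries, and what part of their Hox UMIs came with it was not tested.

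**Figure D3:**
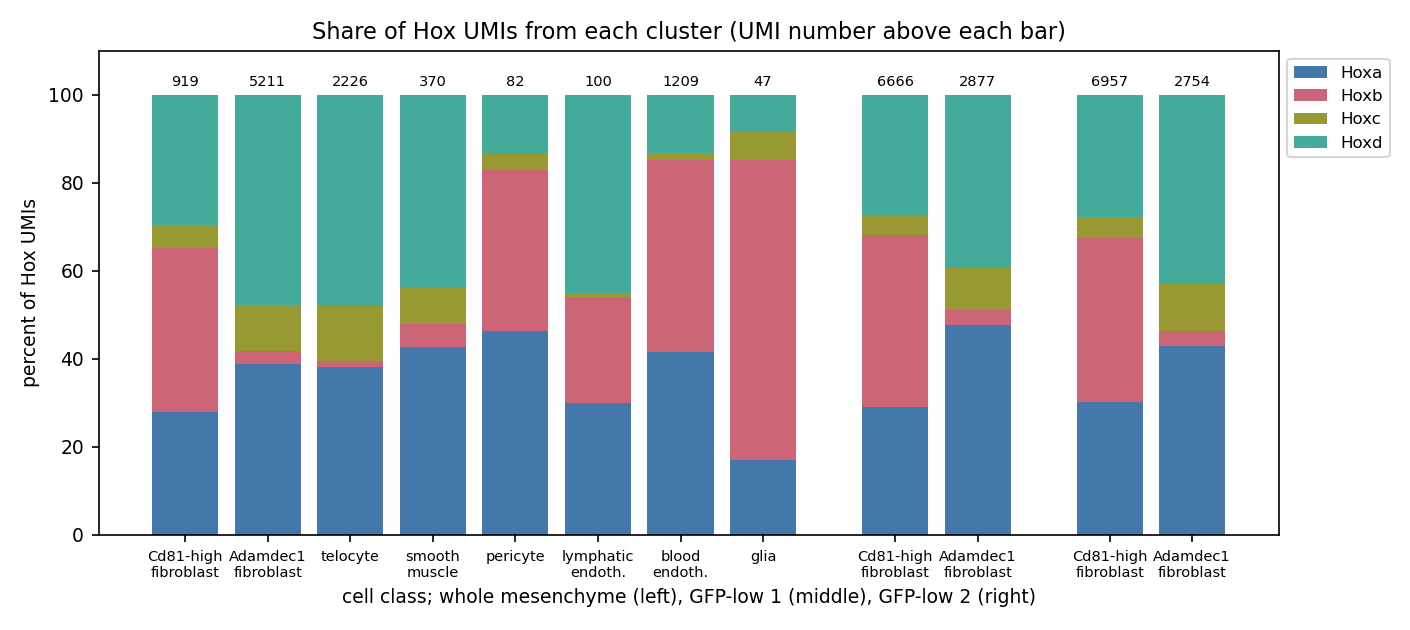
Percent of Hox UMIs (y axis) from the Hoxa, Hoxb, Hoxc and Hoxd clusters in 8 cell classes of the whole mesenchyme library and in the 2 main fibroblast classes of each GFP-low library (x axis), with the UMI number above each bar. The Hoxb part is 37.2% to 38.9% in Cd81-high and 2.94% to 3.48% in Adamdec1 fibroblasts, 43.7% in blood endothelium and 68.1% of 47 UMIs in glia.

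Within the Cd81-high fibroblasts, clusters made without the Hox genes differed in Hoxb level. Clusters of at least 100 gated cells ranged from 53.0 to 174.0 CPM of summed Hoxb UMIs. In GFP-low library 2 the cluster led by Ptx3 and Nov (cluster 12, 425 cells, Pi16 at 224.1 CPM) had 53.0 CPM (exact Poisson 95% interval 45.9 to 60.9), and the cluster led by Angptl1 and Ms4a4c (cluster 9, 761 cells, Pi16 at 39.9 CPM) had 119.6 CPM (110.3 to 129.4). The largest cluster of that library (cluster 1, 2091 cells, Pi16 at 38.8 CPM) had 75.7 CPM (71.6 to 79.9), and its Pi16 cluster (cluster 7, 109 cells, Pi16 at 492.5 CPM) had 69.0 CPM (52.2 to 89.4). In GFP-low library 1 the Pi16 cluster (cluster 7, 766 cells, Pi16 at 533.5 CPM) had 103.6 CPM (94.98 to 112.8), and the cluster led by Chodl (cluster 4, 854 cells, Pi16 at 43.4 CPM) had 174.0 CPM (162.9 to 185.6). The intervals cover counting error only, and every cluster stood above the 10.6 to 13.7 CPM of Adamdec1 fibroblasts. Droplets under 100 UMIs had 31.9, 104.3 and 63.7 CPM of Hoxb in the whole mesenchyme library, GFP-low library 1 and GFP-low library 2, at or above the lowest cluster of each GFP-low library.

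Telocytes, the signalling cells next to the epithelium, had a Hox profile close to that of Adamdec1 fibroblasts. Only the whole mesenchyme library held enough telocytes, 19 and 15 being gated in the GFP-low libraries, so no test could be run. The rule for a difference between classes in 1 library was 2-fold with at least 10 UMIs in the higher sum. Of 24 Hox genes that could be called, 0 were higher in telocytes, where 5.97% of all genes were, and 1 was lower, where 8.78% of all genes were: Hoxb3, with 2 UMIs against 23 (ratio 0.28, exact interval 0.031 to 1.12). Hoxd11 was at 101 CPM in telocytes (92 to 111) and 72.9 CPM in Adamdec1 fibroblasts, and Hoxc10 at 27.0 against 15.2 CPM. The median log2 ratio was 0.48 over the 20 Hox genes with 10 UMIs in both sums, against 0.047 over 11095 such genes, and Hoxb gave 1.53% of telocyte Hox UMIs.

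Blood endothelium, the lining of the vessels, had a Hox profile unlike that of the fibroblasts around it. The comparison was between 781 endothelial cells and 5533 fibroblasts of the whole mesenchyme library, 1 library, so values are given with exact Poisson intervals and no test. Of 31 Hox genes that could be called, 11 were at least 2-fold higher in blood endothelium, where 11.5% of all genes were, and 10 were at least 2-fold lower, where 17.8% of all genes were. The higher ones were Hoxa5, Hoxa7, Hoxa9 and all of Hoxb2 to Hoxb9, and the interval of each ratio to the pooled fibroblasts excluded 1. The median log2 ratio was 1.49 over the 16 Hox genes with 10 UMIs in both sums, and 0.05 over 10212 such genes. The pool held 597 Cd81-high cells. Summed Hoxb was 22.8 CPM in the pool, 100.9 CPM in Cd81-high fibroblasts (90.5 to 112.1) and 205.7 CPM in endothelium (188.5 to 224.0). Endothelial Hoxb2 and Hoxb5, at 20.6 and 8.57 CPM, stood below the Cd81-high values of this library given above.

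Hoxb4 was at 79.1 CPM in blood endothelium (203 UMIs, 68.6 to 90.7) and at 8.69 CPM in all fibroblasts (7.61 to 9.88), a ratio of 9.1. Hoxb7, which the fibroblasts had at 1.08 CPM, was at 22.6 CPM in endothelium, a ratio of 21.0 (13.2 to 34.0). Hoxb8 and Hoxb9 extended the series further along the cluster than in any fibroblast class of this library: Hoxb8 had 21 UMIs in endothelium and 1 in 26928327 fibroblast UMIs, and Hoxb9 had 67 and 1. Hoxb9, a gene of the abdominal level of the cluster, was seen in 7.43% of endothelial cells (58 of 781, median 2933 UMIs) and in 0.0181% of fibroblasts (median 4970 UMIs). Droplets under 100 UMIs had it at 0.559 CPM. The T cells, 0 of 74 and 0 of 29 with Hoxb9, came from the GFP-low libraries. Those libraries had 0 Hoxb9 UMIs over all cells, so these T cells give no background for Hoxb9 in endothelium.

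Hoxa genes split by number. Hoxa5 was at 41.3 CPM in endothelium and 12.0 CPM in fibroblasts, Hoxa7 at 59.6 against 17.5 and Hoxa9 at 47.5 against 20.6 CPM. Beyond Hoxa9 the order turned: Hoxa10 was at 19.5 against 47.1 CPM, Hoxa11 at 3.9 against 24.5 CPM and Hoxa13 at 0.779 CPM, from 2 UMIs, against 6.54 CPM. The Hoxd genes followed the same direction from Hoxd9 on, with Hoxd9 at 12.5 against 34.9, Hoxd10 at 5.45 against 26.4 and Hoxd11 at 11.3 against 73.5 CPM, while Hoxd8 was at 30.4 against 37.7 CPM. Hoxc genes had 18 UMIs in endothelium in all: Hoxc9 had 8 (3.12 against 6.16 CPM, not called), Hoxc10 had 6, Hoxc6 had 3, Hoxc4 had 1 (ratio 0.194, interval 0.00483 to 1.13) and Hoxc11 had 0, at least 3.62-fold lower when 3 UMIs are taken as the floor.

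Free RNA was weighed by the genes Dcn, Lum and Dpt, which fibroblasts make. Their summed level in blood endothelium was 18.9% of that in droplets under 100 UMIs, and in glia 16.9%. At this share free RNA would give 7.51 CPM of Hoxd11 in endothelium, where 11.3 CPM was counted, and 4.33 CPM of Hoxd10, where 5.45 CPM was counted (2.98 to 9.15). For Hoxb4 it would give 2.22 of 79.1 CPM, for Hoxa7 3.59 of 59.6 CPM and for Hoxb9 0.106 of 26.1 CPM. The endothelial levels of Hoxa10, Hoxc9, Hoxd8, Hoxd9 and Hoxd11 were above this share beyond their counting intervals, and those of Hoxa11, Hoxa13, Hoxc6, Hoxc10 and Hoxd10 were not. Dcn, Lum and Dpt summed to 25679 CPM in Cd81-high fibroblasts, 7678 in Adamdec1 fibroblasts and 2492 in telocytes. The 10 Adamdec1 markers had 2613 CPM in endothelium and 8842 in droplets, a larger part. For genes lower in Cd81-high fibroblasts, all of these among them, the share may thus be too low. What endothelium itself makes of the Adamdec1 markers was not tested.

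Blood endothelium and Cd81-high fibroblasts both had a high Hoxb part, 43.7% of Hox UMIs in endothelium (exact binomial 95% interval 40.9 to 46.5%) and 37.3% in Cd81-high fibroblasts (34.2 to 40.5%) of the same library. Genes numbered 9 to 13 gave 28.1% of endothelial Hox UMIs (25.6 to 30.7%) and 44.5% of those of Cd81-high fibroblasts (41.3 to 47.8%). Groups 9, 4 and 7 led there with 18.9%, 17.9% and 17.5%, and group 11 gave 3.23%. The sum of all Hox genes was 470.9 CPM in blood endothelium and 375.4 CPM in fibroblasts.

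**Figure D4:**
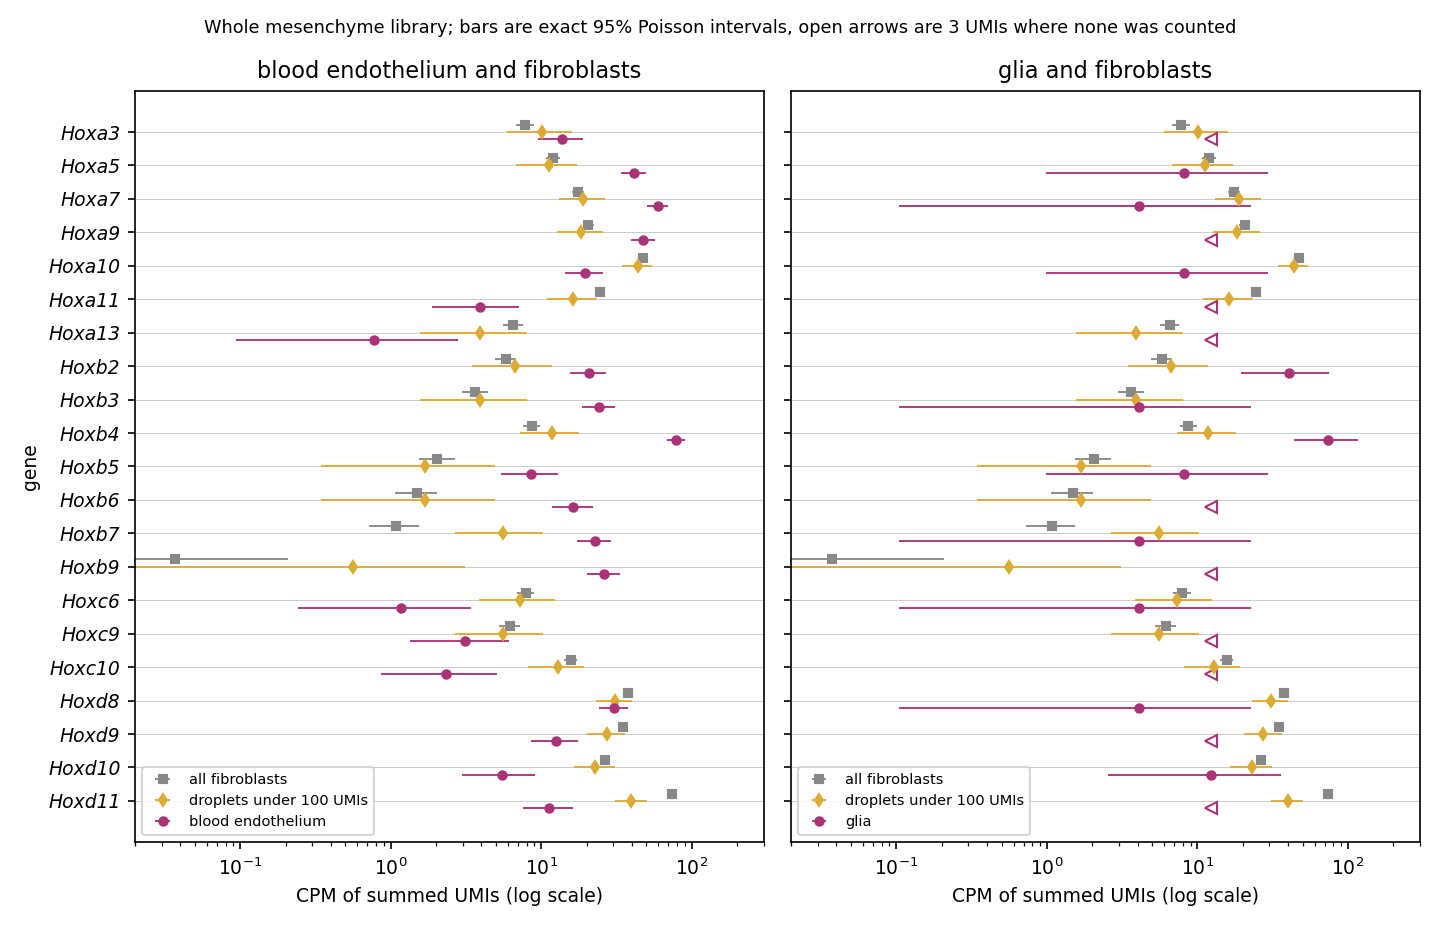
Level of the 21 Hox genes that reached 10 CPM (y axis) in CPM on a log axis (x axis), in the whole mesenchyme library, for blood endothelium (left) and glia (right) beside all fibroblasts and droplets under 100 UMIs. Bars are exact 95% Poisson intervals and open arrows mark the level of 3 UMIs where none was counted; Hoxb4 is at 79.1 CPM in endothelium and 73.6 CPM in glia, far right of the fibroblasts at 8.69 CPM, and Hoxd11 lies left of them at 11.3 CPM in endothelium and at no UMI in glia.

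Glia, the support cells of enteric nerves, had more Hoxb4 and Hoxb2 and less Hoxd11 than the pooled fibroblasts. The class was 52 cells with 244471 UMIs and 47 Hox UMIs, so only large differences could be seen. Of 29 Hox genes that could be called against fibroblasts, 2 were higher, where 6.11% of all genes were, a share near that background, and 6 were lower, where 11.8% of all genes were. Hoxb4 had 18 UMIs (73.6 CPM, 43.6 to 116), a ratio of 8.47 (4.93 to 13.7), and Hoxb2 had 10 (40.9 CPM, 19.6 to 75.2), a ratio of 7.06 (3.32 to 13.3). Hoxb3, which lies between them, had 1 UMI and Hoxb5 had 2. Hoxb2 stood at the minimum of 10 UMIs, and with the highest doublet scores left out it was not called. The interval of its glial level, 19.6 to 75.2 CPM, held the Hoxb2 level given above for Cd81-high fibroblasts of this library. A Hoxb4 UMI was seen in 25.0% of glial cells (14.0 to 38.9%, median 4288.5 UMIs) and in 3.6% of fibroblasts. It was seen in 2.7% and 6.9% of T cells, which came from the GFP-low libraries and give no background for this library.

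Hoxd11, Hoxd9, Hoxa9 and Hoxa11 had 0 UMIs in glia, and Hoxd11 was at least 5.99-fold lower than in fibroblasts. Hoxd9 was at least 2.84-fold lower. Hoxa7 with 1 UMI, Hoxa10 with 2, Hoxd8 with 1 and Hoxd10 with 3 were called lower too, and the ratio intervals of Hoxa7 and Hoxd10 included 1. The Hoxb cluster gave 68.1% of glial Hox UMIs (52.9 to 80.9%), paralogue group 4 alone 44.7% (30.2 to 59.9%), and genes 9 to 13 gave 10.6% (3.55 to 23.1%). Against blood endothelium, 0 of 18 Hox genes were 2-fold higher in glia, where 8.82% of all genes were, and 8 were lower, where 17.5% were: Hoxa5, Hoxa7, Hoxa9, Hoxa10, Hoxb3, Hoxb7, Hoxb9 and Hoxd8. The level of Hoxb4 was within counting error between them, at 73.6 and 79.1 CPM. The sum of all Hox genes in glia was 192.3 CPM (141.3 to 255.7), the lowest of the 8 classes of this library in the heatmap.

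Lymphatic endothelium, 60 cells with 100 Hox UMIs, had more Hoxd8 and Hoxd9 and less Hoxb4 than blood endothelium. Hoxd9 was at 93.6 CPM (57.2 to 145) against 12.5 CPM in blood endothelium, a ratio of 7.51 (4.07 to 13.5), and Hoxd8 at 74.9 against 30.4 CPM. These 2 of 18 callable Hox genes were higher, where 6.99% of all genes were, and 6 were lower (Hoxa3, Hoxa5, Hoxa9, Hoxa10, Hoxb2 and Hoxb4), where 12.3% of all genes were. Among these 6, the ratio interval excluded 1 for Hoxb4, at 18.7 against 79.1 CPM. Against fibroblasts, Hoxa7 (74.9 CPM) and Hoxd9 were higher, 2 of 29 where 6.96% of all genes were, and Hoxa10, Hoxa11 and Hoxd11 were lower, 3 of 29 where 10.8% were. Both counts were near those shares and are not read as a trait of the Hox genes. With each cell thinned to 1000 UMIs, neither Hoxa7 nor Hoxd9 was called higher and Hoxa11 was not called lower.

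Pericytes, which wrap capillaries, had Hoxb4 at 86.4 CPM (14 UMIs, 47.3 to 145), the 1 of 29 Hox genes that was higher than in fibroblasts, where 3.76% of all genes were. Hoxd8, Hoxd10 and Hoxd11 were lower, 3 of 29 where 8.59% of all genes were, with the ratio interval excluding 1 for Hoxd11 at 12.3 CPM. Both counts were near those shares, and with each cell thinned to 1000 UMIs none of these genes was called. The class was 40 cells, 24 of them near the limit of the gate, and clustering gave it no cluster of its own name. A cluster led by Pln, Rgs4 and Notch3, with Rgs5 also among its leading genes, was left without a class name. It was cluster 15, with 85 cells of the whole mesenchyme library. The 10 blood endothelium markers summed to 321 CPM in the gated pericytes, 5 of them at 0. The part of these markers' cells in the pericyte Hoxb4 level was not tested. Smooth muscle cells or myofibroblasts had Hoxd11 at 88.6 CPM, Hoxa10 at 73.4 CPM and Hoxd8 at 68.4 CPM, none of them called against fibroblasts, and the Hoxb cluster gave 5.14% of Hox UMIs. Among 29 Hox genes there, Hoxa7 was higher at 39.3 CPM, where 5.02% of all genes were, and Hoxa3 and Hoxc9 were lower, where 7.26% were, with a ratio interval that included 1 for Hoxc9. With the highest doublet scores left out neither was called lower, and with thinning none of the 3 was called. The numbers of Hox genes called in either direction were near these shares of all genes. The class carried fibroblast RNA: the 10 Adamdec1 fibroblast markers summed to 9525 CPM, its own 8 markers to 7166 CPM, and Dcn, Lum and Dpt stood at 37.0% of their level in small droplets. The part of this RNA in its Hox levels was not tested.

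Between libraries, a few Hox genes differed by 2-fold within a class. In Cd81-high fibroblasts 0 of 26 Hox genes were 2-fold higher in the whole mesenchyme library than in both GFP-low libraries, where 1.54% of all genes were. There, 2 were lower than in both, where 1.7% of all genes were. These were Hoxa13, at 2.35 CPM (8 UMIs) against 5.49 and 5.04 CPM, and Hoxc11, with 1 UMI against 23 and 30. In Adamdec1 fibroblasts 1 of 24 was higher, where 2.88% of all genes were: Hoxa4, with 10 UMIs against 1 and 2, ratios whose intervals included 1. There, 0 were lower than in both, where 1.08% of all genes were. Hoxa13 was at 6.17 CPM in that class of the whole mesenchyme library and at 13.6 and 12.1 CPM in the GFP-low libraries, so it was lower there in both fibroblast classes.

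The GFP-low libraries, which the labels give as replicates, differed from each other by as much in Cd81-high fibroblasts. There, 2 of 26 Hox genes were 2-fold higher in GFP-low library 1, where 5.45% of all genes were, and 0 were lower, where 6.04% were. These were Hoxb5, at 14.96 against 5.69 CPM (ratio 2.63, 2.17 to 3.18), and Hoxb8, with 16 UMIs against 5. In Adamdec1 fibroblasts 0 of 19 Hox genes were called in either direction, where 4.86% of all genes were higher and 5.2% lower. Taken one by one, the whole mesenchyme library differed from GFP-low library 1 in 0 higher and 4 lower of 24 Hox genes in Cd81-high fibroblasts (3.18% and 4.4% of all genes) and in 2 higher and 1 lower of 24 in Adamdec1 fibroblasts (7.6% and 4.06%). The ratio interval excluded 1 for 2 of the 4 and for the 1 lower gene, Hoxa13, but for 0 of the 2 higher. It differed from GFP-low library 2 in 1 higher and 2 lower of 25 in Cd81-high (4.32% and 3.95%) and in 4 higher and 0 lower of 24 in Adamdec1 fibroblasts (5.7% and 3.59%). Of these 4 the interval excluded 1 for Hoxa5, at 11.5 against 5.09 CPM, and in Cd81-high fibroblasts it did so for Hoxb5 (higher) and Hoxa13 (lower). The plot of levels by library shows these beside genes that stayed together.

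**Figure D5:**
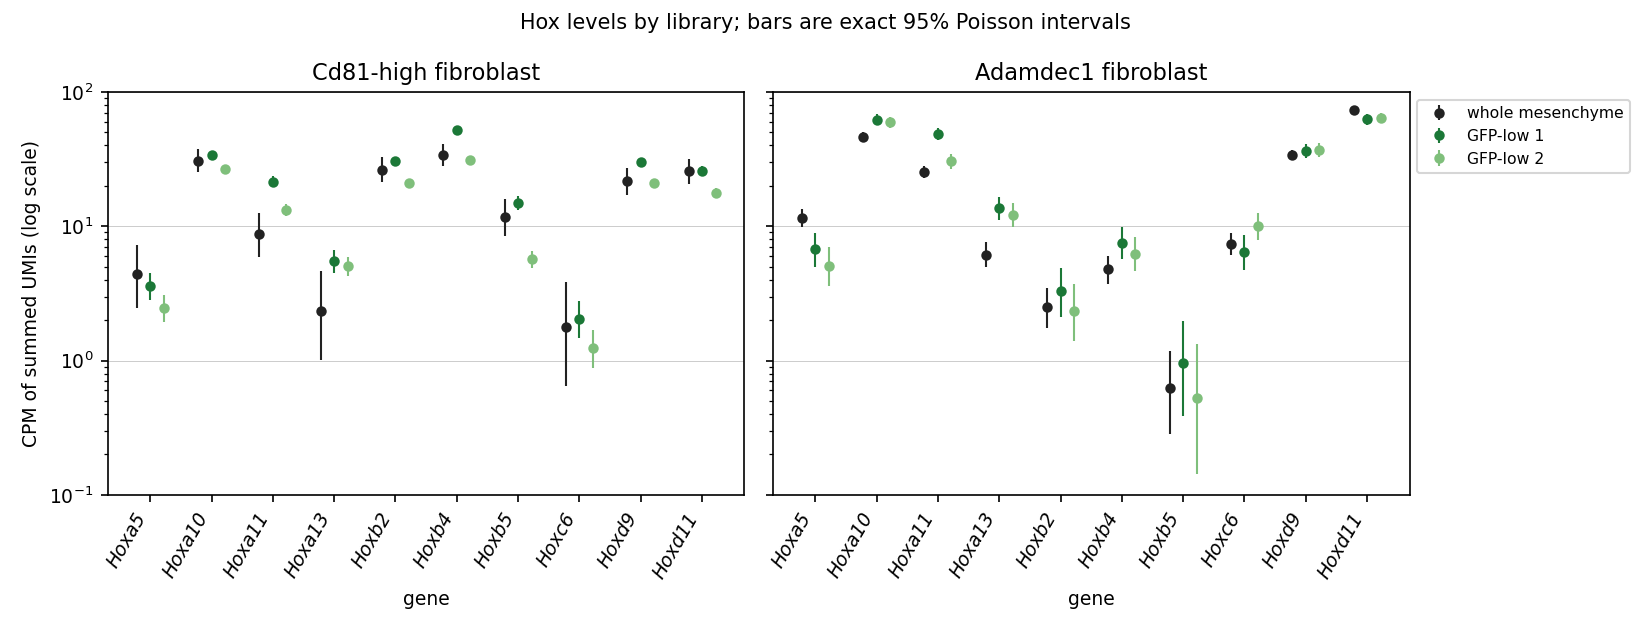
CPM of summed UMIs on a log axis (y axis) for 10 Hox genes (x axis) in Cd81-high (left) and Adamdec1 fibroblasts (right) of the 3 libraries. Points are single libraries and bars exact 95% Poisson intervals; Hoxa13 is lowest in the whole mesenchyme library in both classes, and Hoxb5 spans 5.69 to 14.96 CPM in Cd81-high fibroblasts.

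Partners of the Hox proteins differed between the fibroblast classes as well. TALE proteins (Pbx, Meis and Pknox) bind DNA together with Hox proteins. Where 14.2% of all genes tested rose in Cd81-high fibroblasts and 14.7% fell, 4 of 8 tested TALE genes rose and 1 fell. Among them, Meis1 rose by 1.51 ± 0.08 on the log2 scale (SE, edgeR adjusted p = 8.57e-06), Pbx3 by 1.52 and Meis2 by 1.42, and Pknox2 fell by 1.28. Meis1 was at 114.4, 101.9 and 113.9 CPM against 39.3, 39.5 and 44.01 CPM. The median over the 8 was 0.76. Meis1, Meis3 and Pknox2 were among the TALE genes lower in blood endothelium than in fibroblasts, Meis1 at 10.9 against 47.8 CPM, and Meis2 had 1 UMI in glia against 93.5 CPM in fibroblasts.

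Of 4 tested transcripts that lie beside the Hox genes, 1 rose and 1 fell, where 14.2% of all genes tested rose and 14.7% fell. With 4 tested, these counts are not read as a result about the list. Hoxb3os, transcribed across Hoxb2 and Hoxb3, rose by 3.49 ± 0.31 on the log2 scale (edgeR adjusted p = 9.27e-05), with 14, 167 and 181 UMIs in Cd81-high and 4, 4 and 7 in Adamdec1 fibroblasts. Hotairm1, at the front of the Hoxa cluster, fell by 0.74 ± 0.23 (edgeR adjusted p = 0.0424), and did not pass without the whole mesenchyme library or without GFP-low library 1 (edgeR adjusted p = 0.0936 and 0.266). The other 2 tested genes of this list of 9, Hoxb5os and Hoxd3os1, had adjusted p = 0.0746 and 0.567 in the same edgeR fit. The median over the 4 tested was 0.67.

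Other transcription factors known from gut regions split. Of 10 tested regional factors 3 rose in Cd81-high fibroblasts and 7 fell, where 14.2% and 14.7% of all genes tested did. The median was -1.63. Tbx3 fell by 3.23, Pitx1 by 2.58, Tcf21 by 2.25 and Osr1 rose by 1.34, and Foxf2 fell by 2.31 but is itself 1 of the 10 genes of the Adamdec1 gate. Tcf21, Pitx1, Osr1 and Foxf2 were also at least 4-fold lower in blood endothelium than in fibroblasts, Tcf21 at 75.6 against 420.2 CPM. In glia Foxf1 was at 16.4 against 198.6 CPM and Nkx2-3 at 32.7 against 250.1 CPM.

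Retinoic acid, which sets Hox expression in embryos, and the Polycomb and Trithorax proteins, which keep it, were followed by lists of 10 and 11 genes. Where 14.2% of all genes tested rose in Cd81-high fibroblasts and 14.7% fell, 2 of 7 tested retinoic acid genes rose and 1 fell, with a median of 0.35. Among them, the receptor gene Rarg rose by 0.35 (edgeR adjusted p = 0.0199) and the receptor gene Rarb fell by 1.33 (edgeR adjusted p = 0.0126). Cyp26b1, which degrades retinoic acid, was at 27.7 CPM in blood endothelium and 0.817 CPM in fibroblasts, a ratio of 33.8 (20.7 to 57.4). Of 11 Polycomb and Trithorax genes 2 rose, a number near the 14.2% of all genes, and 0 fell, where 14.7% did. The median was 0.12. Eed rose by 0.53 and Kdm6b by 0.86 (edgeR adjusted p = 0.0162 and 0.0246). These weaker calls rested on single libraries: without GFP-low library 1, Rarg, Rarb, Eed and Kdm6b did not pass (edgeR adjusted p = 0.0871, 0.0549, 0.149 and 0.182), and without GFP-low library 2, Rarg and Kdm6b did not (edgeR adjusted p = 0.139 and 0.0632). Bmi1 was at 53.2 CPM in glia and 11.3 CPM in fibroblasts, a ratio of 4.71 (2.48 to 8.18).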

How the data were processed

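The deposited values were counts: UMI numbers per gene and barcode in raw matrices, which the authors made from Single Cell 3′ V3.1 libraries with Cell Ranger 3.0.2 on mm10, per the submitters' processing notes. About 8000 live cells were loaded per library, per the labels. Cells were kept at 1000 or more UMIs, 500 or more genes and at most 20% mitochondrial UMIs. Classes were gated on marker lists. Cells with at least 4 markers of a single non-fibroblast class took that class. Those past both endothelial lists were taken as lymphatic, and those past the pericyte and smooth muscle lists by the larger part. Fibroblasts had at least 4 general fibroblast markers and fewer than 4 of each non-fibroblast class. A fibroblast class needed 30% of its list and a lead of 10 percentage points over the other fibroblast class lists. Near the gate were 176, 421 and 442 Cd81-high cells. The doublet caller marked 2, 3 and 3 cells and so did not work; doublets were not removed. UMIs were summed per library and class of 20 or more cells, and CPM is per 1000000 UMIs of that sum. Class tests used edgeR 4.0.16 (quasi-likelihood, TMM, library as block, which pairs the classes because both come from the same capture) in R 4.3.3; printed CPM are unscaled. On simulated counts for the Cd81-high against Adamdec1 comparison, 93.2% of 88 planted 2-fold and 100% of 112 planted 4-fold changes were recovered. Among the 12641 genes tested there, 16 without a planted change were called. The simulation gave all genes the same dispersion and changed only genes averaging 20 UMIs or more. It does not cover changes in genes with fewer UMIs. All other comparisons had 1 library on a side: values carry exact 95% Poisson or binomial intervals, which cover counting error only, and differences are called at 2-fold with 10 UMIs, with 3 UMIs as the floor for 0. Named genes were the Hox genes at 10 CPM or more, and, of other lists, up to 4 members past the test or 4-fold apart. Clusters were made with scanpy 1.11.5 without the Hox genes. Some list genes are not reported here. The members, markers and lists were chosen with earlier results of these data known. Alternatives were DESeq2 1.42.0, no filter, no block, each library left out, stricter gates, clusters, thinning, doublet scores, 2000 UMIs, equal cell weights and subtraction of the small-droplet profile.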

Additional observations from a re-analysis of the deposited data

How the results depend on the processing

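No Hox gene that passed between the 2 fibroblast classes changed direction under any alternative of that test. In the other comparisons only counts, shares and sets of called genes were compared. The 6 Hoxb genes kept passing in each leave-one-out fit. These fits had 6 to 6 Hox genes higher and 13 to 16 lower in Cd81-high fibroblasts, with 971 to 2259 and 1086 to 2096 of all genes. The low ends came without GFP-low library 1. Without the library block, which pairs the classes, 703 of all genes were higher and 847 lower, and Hoxa5, Hoxa11, Hoxa13, Hoxc4, Hoxc8 and Hoxd9 no longer passed, leaving 6 Hox genes higher and 12 lower; with DESeq2 it was 6 and 14. Thinned to 1000 UMIs, 926 and 873 of all genes and 5 higher and 9 lower Hox genes passed, with 18 Hox genes tested and Hoxb7 not among them, and 0 and 0 Hox genes were called higher and lower in glia, where fewer UMIs were left. Leaving out the highest doublet scores gave 1 higher Hox gene in glia (Hoxb4), and, in blood endothelium, 48.4% of Hox UMIs from Hoxb and 23.8% from genes 9 to 13. Equal cell weights gave 25.4% for the latter. Subtracting the small-droplet profile gave 48.3% and 23.3%. With classes from clusters, 1 Hox gene was 2-fold higher in telocytes than in Adamdec1 fibroblasts. The causes were not tested. The telocyte alternatives that need a test could not be run, and the small-droplet subtraction was not run for fibroblasts. Pericytes had too few cells for the stricter gate, and no cluster was named pericyte, so the cluster alternative was missing for them. Depth limits glia, lymphatic endothelium and pericytes, whose Hox genes mostly had under 10 UMIs.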
